A study of Saccharomyces cerevisiae with 12 samples.

Results

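The proteasome genes of budding yeast, Saccharomyces cerevisiae, were followed in cells sorted by the redox state of their cytosol. The set holds 36 genes, of which 32 encode subunits of the core particle, the base and the lid. The others are the transcription factor gene RPN4, the assembly factor gene UMP1 and the genes of the activators Blm10 and Ecm29. SEM1, the gene of the smallest lid subunit, is not in the set and is given with the related genes. The members were taken from a list of names, and all 36 were found among the 6645 genes of the deposited table. All 36 also had a mean of at least 20 PPM and were tested, with 4776 genes tested in all. PPM are the reads of a gene scaled to the total of its library after PCR copies were removed, so that they are shares of that library.

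The cells were wild type haploids of the strain BY4741, and every group carried the cytosolic sensor Grx1-roGFP2, whose fluorescence follows the oxidation of glutathione. Cultures were aged in a modified casein medium without any further treatment, and cells were sorted by the sensor into an oxidized and a reduced subpopulation. There were 4 groups of 3 libraries: oxidized cells at 72 hr, reduced cells at 72 hr, oxidized cells at 48 hr and reduced cells at 48 hr, counted from the logarithmic phase. The replicates are described as biological in the paper's text. Each library holds only the cells inside a gate on the sensor's fluorescence ratio, after dead cells were gated out with propidium iodide.

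The libraries held between 90403 and 241084 reads, so that a member was covered by 146 reads (ECM29) to 969 reads (SCL1) over all 12 libraries. The methods give the mating type as α. However, the 6 a-specific genes summed to between 1038 and 1519 PPM and the 4 α-specific genes to between 35.3 and 199 PPM. Of the α-specific genes, MF(ALPHA)2 was listed at 0 in 11 of 12 libraries. MF(ALPHA)1, STE3 and SAG1 had 90, 36 and 28 reads over all libraries. Reads of MET17, which BY4741 lacks, were 0 in all libraries. The paper's genotype also lists changed HIS3, LEU2 and URA3 genes, which averaged 214, 4.72 and 1565 PPM. LEU2 rested on 8 reads in all. Where the reads of these genes came from was not tested.

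The proteasome degrades proteins that carry chains of ubiquitin. Its core particle is a barrel of stacked rings, in which the alpha rings form the gate and the beta rings hold the proteolytic sites. The regulatory particle consists of a base, whose ring of ATPases unfolds the substrate, and a lid, which removes the ubiquitin. In yeast Rpn4 activates the proteasome genes by binding a short element before them and is itself destroyed by the proteasome. When yeast stops dividing, proteasomes leave the nucleus and gather in cytosolic storage granules, and Blm10 takes part in their return to the nucleus.

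The element that Rpn4 binds, GGTGGCAAA, was searched on both strands from 250 bases before to 50 bases after the start codon in the yeast reference genome R64, the assembly of sacCer3. It was found before 28 of the 36 genes (77.8%) and before 27 of the 32 subunit genes, against 72 of all 6020 protein-coding genes (1.20%). The shorter core of the element, GTGGCAAA, which lies within the full element, was found before 31 of the 36 genes (86.1%) and before 144 of 6020 genes (2.39%). The full element began between 84 and 183 bases before the start codon, and the sequence read as above on the coding strand in 20 genes and on the other strand in 8. Neither form was found in the window of RPN10, RPN13, RPN4, UMP1 or BLM10, and PRE5, PUP1 and RPN8 held the core alone.

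**Figure D1:**
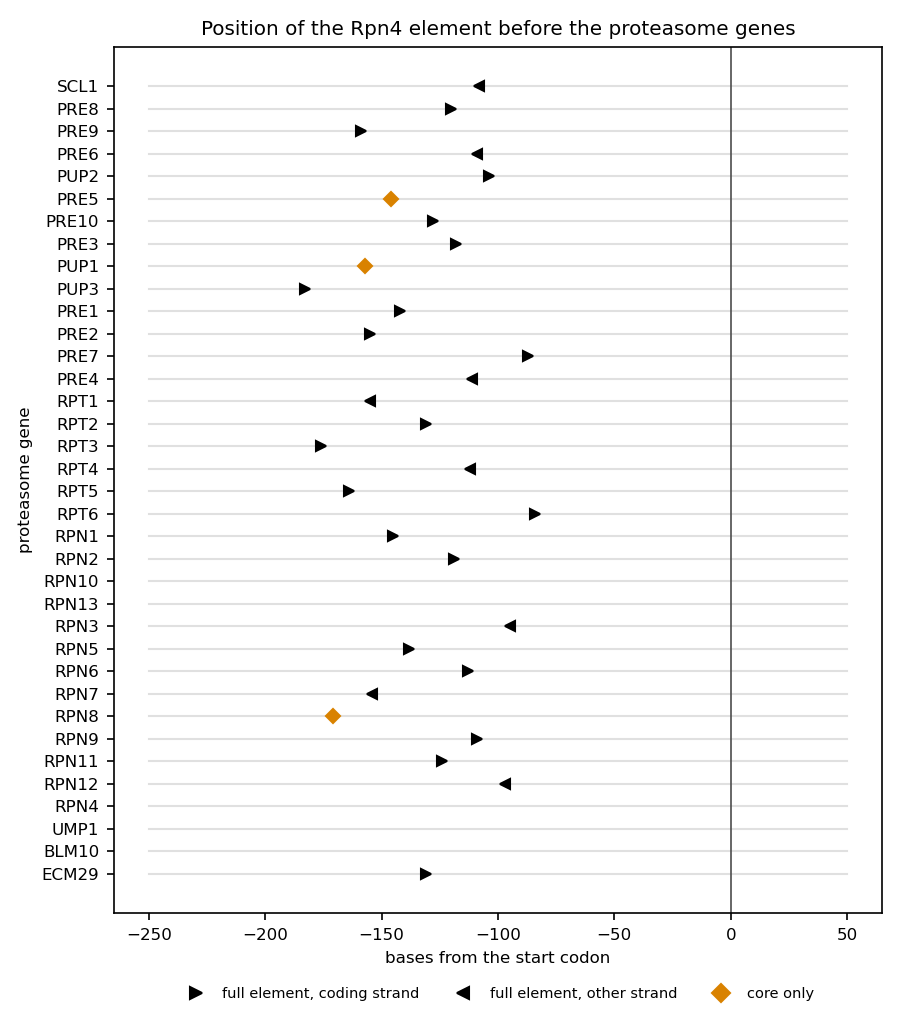
Position of the Rpn4 element before each of the 36 proteasome genes, in bases from the first base of the start codon (x axis). Arrowheads mark the first base of the full element and point right where it lies on the coding strand, diamonds mark the core alone, and grey lines show the window searched. The matches lie between 84 and 183 bases before the start codon, and 5 genes have none.

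The sequences are printed for the genes of the 3 proteolytic subunits, for the 3 lid genes with a redox difference past the threshold and for BLM10, which had the largest redox difference. Each runs 5′ to 3′ on the coding strand, with the element or its core in capitals and 20 bases on either side.
PRE3 (chrX:435025-435073, + strand): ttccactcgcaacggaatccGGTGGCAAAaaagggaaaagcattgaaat
PUP1 (chrXV:631881-631928, - strand): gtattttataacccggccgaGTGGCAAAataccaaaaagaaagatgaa
PRE2 (chrXVI:732174-732222, + strand): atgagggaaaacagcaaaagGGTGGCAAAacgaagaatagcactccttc
RPN7 (chrXVI:742280-742328, + strand): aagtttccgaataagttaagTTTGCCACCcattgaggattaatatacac
RPN8 (chrXV:817075-817122, - strand): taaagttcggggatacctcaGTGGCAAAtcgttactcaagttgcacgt
RPN9 (chrIV:1322076-1322124, + strand): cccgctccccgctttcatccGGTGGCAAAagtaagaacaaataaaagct
In RPN7 the capitals read as the reverse complement of the element, which lies on the other strand. The window of BLM10 is shown whole because it held neither form, so that it has no capitals, and its last 50 bases are the start of the coding sequence.
BLM10 (chrVI:123229-123528, + strand): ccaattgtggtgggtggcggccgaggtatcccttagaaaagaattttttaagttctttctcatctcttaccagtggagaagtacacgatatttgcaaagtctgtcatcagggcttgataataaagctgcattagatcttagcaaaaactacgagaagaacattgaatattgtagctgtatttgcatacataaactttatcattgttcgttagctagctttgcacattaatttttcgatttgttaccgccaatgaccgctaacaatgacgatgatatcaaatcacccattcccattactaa
A match describes the letters in the window, and occupancy by the factor was not measured.

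The subunit genes were expressed at similar levels. Their mean over the 12 libraries ranged from 142 PPM for the alpha ring gene PRE8 to 535 PPM for the alpha ring gene SCL1, a range of 3.76-fold, with a median of 242 PPM, while the median of all genes tested was 72.6 PPM. Reads were counted at the 3′ end only, and the level of a gene therefore does not depend on its length. RPN4 averaged 483 PPM over the 12 libraries and ECM29 averaged 77.5 PPM.

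The summed level of the 36 genes was highest in reduced cells at 72 hr. The 3 libraries of oxidized cells at 72 hr held 9334, 9406 and 8406 PPM, against 10398, 10963 and 10796 PPM in reduced cells at 72 hr. The sums at 48 hr were 9181, 9062 and 9018 PPM in oxidized cells and 9383, 9037 and 9332 PPM in reduced cells. Thus the 3 reduced libraries at 72 hr lay above the 9 others, which did not separate by redox state or age. After the libraries were rescaled by the median of ratios, the reduced libraries at 72 hr still lay highest, at 9979 to 10392 PPM, with the others between 8511 and 9628 PPM. These sums are shares of the reads of a library and were given no test. In sorted cells, fewer cells that express a gene and less of its RNA per cell cannot be told apart.

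Within the particle, the reduced libraries at 72 hr lay above the 9 others in the beta ring and the base, but not in the alpha ring or the lid. The beta ring genes summed to 1417 ± 203 PPM in oxidized and 1866 ± 108 PPM in reduced cells at 72 hr, and 1504 ± 150 PPM in oxidized and 1473 ± 18.3 PPM in reduced cells at 48 hr (SD, n = 3 each). The 7 alpha ring genes summed to 2088 ± 77.2 PPM in oxidized and 2360 ± 175 PPM in reduced cells at 72 hr, and to 2018 ± 185 PPM in oxidized and 2087 ± 50.7 PPM in reduced cells at 48 hr. The base genes reached 2748 ± 272 PPM in oxidized and 3211 ± 220 PPM in reduced cells at 72 hr, and 2618 ± 144 PPM in oxidized and 2695 ± 17.0 PPM in reduced cells at 48 hr. The 8 lid genes of the set, which leave out SEM1, reached 1735 ± 194 PPM in oxidized and 2069 ± 136 PPM in reduced cells at 72 hr. The mean of the lid at 48 hr was higher in oxidized cells, with 2054 ± 97.8 PPM against 1879 ± 182 PPM in reduced cells, and the libraries overlapped. The oxidized and reduced libraries at 72 hr did not overlap in the 4 parts, although the nearest lid libraries both rounded to 1912 PPM. After rescaling by the median of ratios they overlapped in each of the 4 parts, with the beta ring at 1253 to 1637 PPM in oxidized and 1619 to 1878 PPM in reduced cells.

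**Figure D2:**
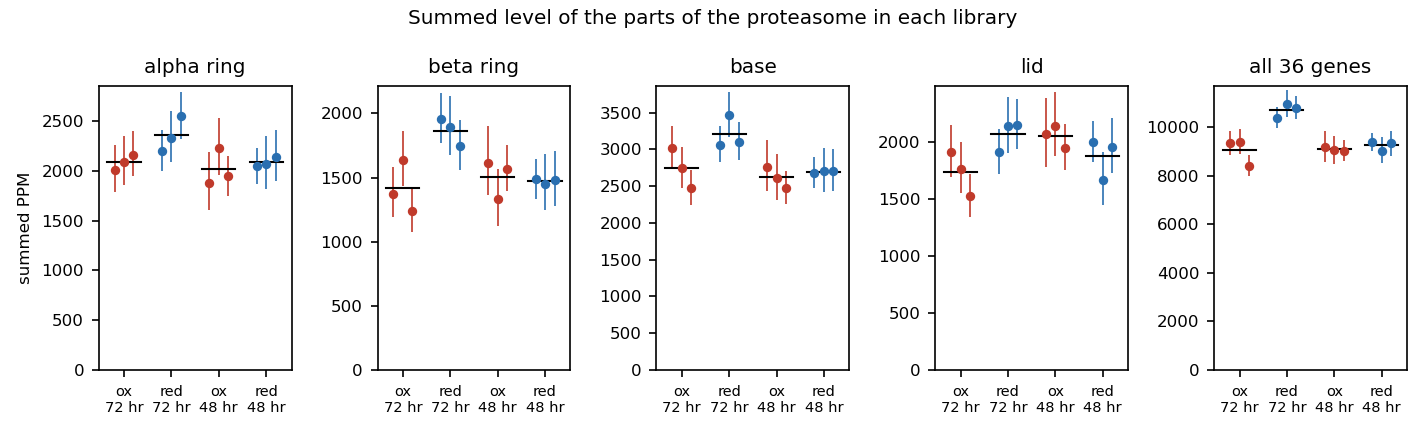
Summed PPM of the alpha ring, beta ring, base and lid genes and of all 36 genes in each library (y axis, from 0), for oxidized (red) and reduced (blue) cells at 72 hr and 48 hr. Points are libraries with their exact 95% binomial interval, which covers counting error only, and black lines are group means. The reduced libraries at 72 hr hold the highest sums of the 36 genes, at 10398 to 10963 PPM.

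For a test of each gene, log2(PPM + 10) was compared with limma, and the p-values were adjusted over the 4776 genes within a comparison by the method of Benjamini and Hochberg, with a threshold of 0.05. A fold change below is a difference of this log2 value, oxidized minus reduced or 72 hr minus 48 hr, and it understates the change of low genes. The median standard error of the 36 genes was 0.24 for a difference at one age.

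At 72 hr, oxidized cells had less BLM10, RPN7 and RPN8 RNA than reduced cells, and no member was higher. These are 8.33% of the 36 genes, while 4.75% of all genes tested were lower and 4.86% were higher. The median fold change of the 36 genes was -0.28, with 30 of 36 below 0, against a median of -0.11 and 58.0% below 0 over all genes tested. The oxidized libraries lay below the reduced ones without overlap in 10 of 36 genes (27.8%), compared with 15.2% of all genes, and above them in RPN4 alone, compared with 10.9% of all genes. After rescaling by the median of ratios, 26 of the 36 fold changes were below 0 and their median was -0.20.

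At 48 hr, BLM10 was lower in oxidized cells and no member was higher, while 2.43% of all genes tested were lower and 1.42% were higher. The 36 genes were evenly divided, with 17 above and 19 below 0 and a median of -0.03, against -0.07 for all genes tested. After rescaling by the median of ratios the balance turned, with 21 above 0 and a median of 0.03. The libraries did not overlap in 4 genes with the oxidized ones lower (11.1%, compared with 10.7% of all genes) and in 1 gene, RPN12, with the oxidized ones higher (2.78%, compared with 6.76%). For 32 of the 36 genes the 95% confidence interval lay within 2-fold in either direction, and at 72 hr this held for 27 genes.

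**Figure D3:**
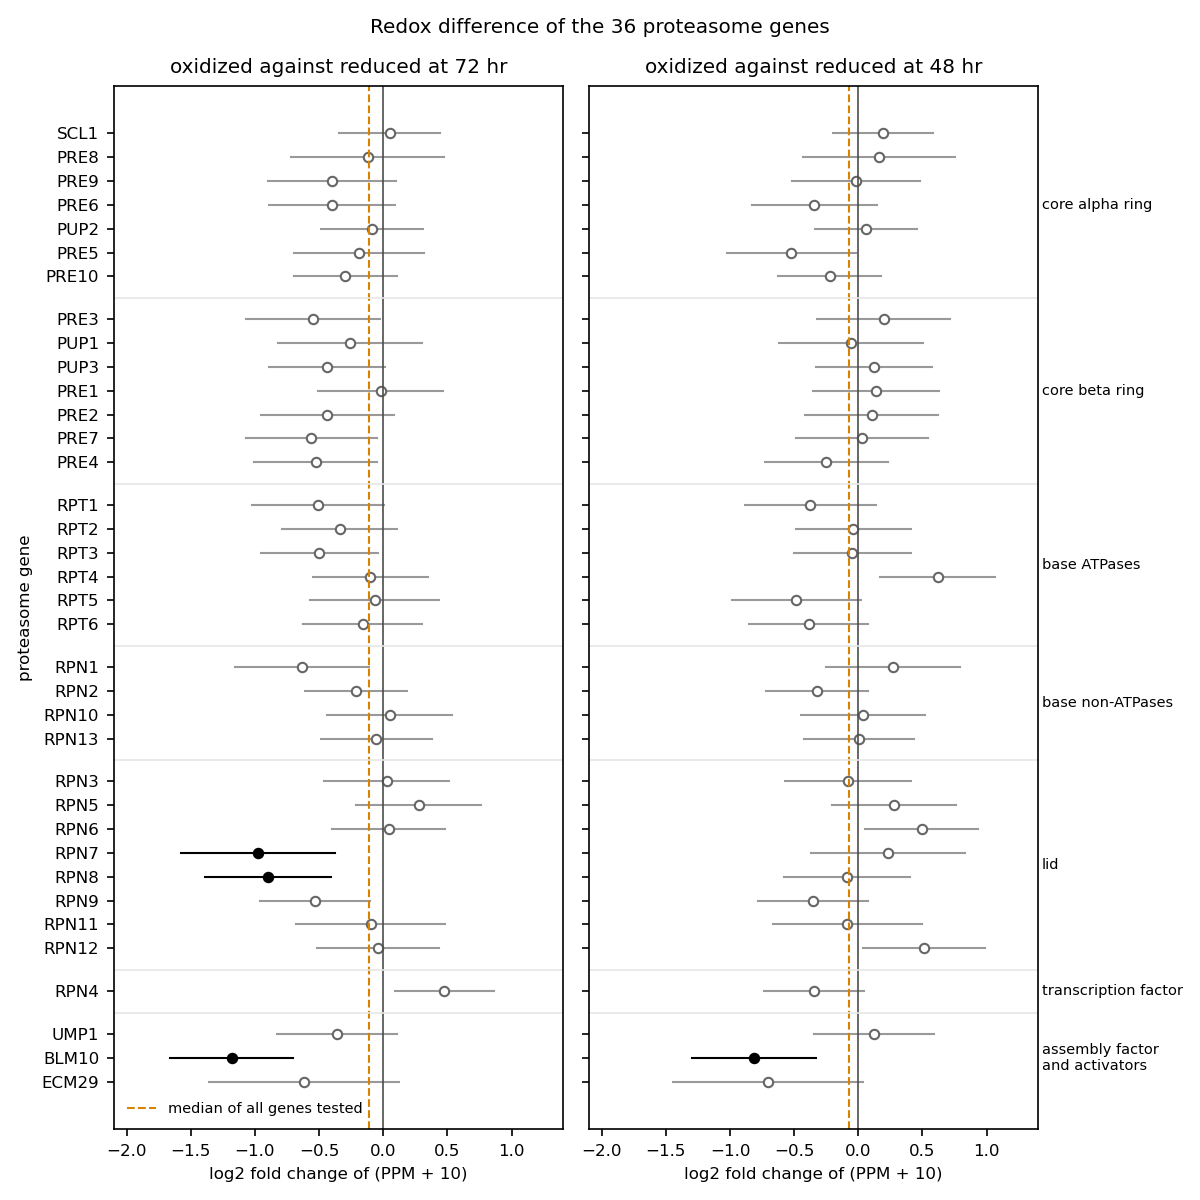
Difference between oxidized and reduced cells for the 36 proteasome genes at 72 hr (left) and 48 hr (right), as log2 fold change of PPM + 10 (x axis). Points are estimates and lines their 95% confidence intervals from the fit over all genes, filled black where the adjusted p is below 0.05, and the dashed line is the median of all genes tested. At 72 hr 30 of 36 points lie below 0, and at 48 hr 19 of 36.

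Averaged over both ages, BLM10 and RPN9 were lower in oxidized cells and no member was higher, while 6.97% of all genes were lower and 4.90% higher. After rescaling by the median of ratios, 258 of all genes were lower and 278 higher in this comparison, against 333 lower and 234 higher before it. The 36 genes had a median of -0.18 with 27 below 0.

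BLM10 encodes an activator that binds the gate of the core particle without need of ATP. It lies on chromosome VI (YFL007W, 123479 to 129910). Its level was 153, 137 and 159 PPM in oxidized cells and 338, 396 and 327 PPM in reduced cells at 72 hr. The 48 hr levels were 122, 131 and 158 PPM in oxidized cells and 295, 218 and 233 PPM in reduced cells. All 6 oxidized libraries thus lay below all 6 reduced libraries. The fold change was -1.18 ± 0.24 (SE, adjusted p = 0.000286, limma) at 72 hr and -0.81 ± 0.24 (adjusted p = 0.0405, limma) at 48 hr, and it was -0.998 ± 0.17 (adjusted p = 1.13e-05, limma) over both ages. At 72 hr this is a level of 0.441-fold. The difference at 48 hr depended on single libraries, since the adjusted p rose above the threshold without oxidized replicate 1 (0.115) or 2 (0.0908), without reduced replicate 1 (0.24), 2 (0.0577) or 3 (0.0836), and without replicate 1 of the reduced cells at 72 hr (0.0532). It was also 0.0668 after rescaling by the median of ratios and 0.0837 when the 6 libraries of that age were fitted alone. The differences at 72 hr and over both ages remained past the threshold in all alternatives.

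ECM29 encodes a protein that binds the core and regulatory particles together and marks faulty proteasomes in yeast. It was measured at 62.8, 79.3 and 41.3 PPM in oxidized cells and at 114, 91.9 and 84.5 PPM in reduced cells at 72 hr. Its level at 48 hr was 55.3, 74.6 and 36.9 PPM in oxidized and 104, 117 and 67.7 PPM in reduced cells. The groups did not overlap at 72 hr and overlapped at 48 hr. It did not pass the test at either age or over both, where the fold change was -0.66 ± 0.26 (adjusted p = 0.0948, limma).

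UMP1 encodes the chaperone of core particle assembly, which is degraded as the first substrate of the finished particle. It stood at 244, 303 and 218 PPM in oxidized and at 412, 219 and 389 PPM in reduced cells at 72 hr. Its 48 hr values were 299, 233 and 348 PPM in oxidized and 241, 302 and 256 PPM in reduced cells. The groups overlapped at both ages, and its fold change over both ages was -0.12, with a 95% confidence interval of -0.45 to 0.21.

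Of the 8 lid genes in the set, RPN7 and RPN8 were lower in oxidized cells at 72 hr. The other 6 did not pass the test, and 3 of these 6 had fold changes above 0. Rpn8 pairs with the deubiquitinase Rpn11, and RPN8 lies on chromosome XV (YOR261C, 815915 to 816931). RPN8 had 209, 159 and 171 PPM in oxidized cells and 268, 410.0 and 361 PPM in reduced cells at 72 hr, with no overlap. At 48 hr it had 277, 177 and 195 PPM in oxidized and 269.6, 168 and 256 PPM in reduced cells, which overlapped. The fold change at 72 hr was -0.90 ± 0.24 (adjusted p = 0.00904, limma), and the adjusted p rose to 0.0539 without oxidized replicate 2 and to 0.0879 without reduced replicate 2 of that age. Over both ages it was -0.49 ± 0.17 (adjusted p = 0.0511, limma), which passed the threshold with a pseudocount of 50 PPM (0.0373), with a minimum mean of 50 PPM (0.0378) and without any of 4 libraries, namely replicate 1 of the oxidized (0.0456) and of the reduced cells (0.0343) at 72 hr and oxidized replicate 1 (0.0208) and reduced replicate 2 (0.0205) at 48 hr.

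Rpn7 is a structural subunit of the lid, encoded on chromosome XVI (YPR108W, 742454 to 743743). RPN7 had 167, 50.5 and 82.5 PPM in oxidized cells and 149, 219 and 197 PPM in reduced cells at 72 hr. The oxidized libraries differed widely among themselves, and the highest of them lay above the lowest reduced library. The 3 oxidized values at 72 hr rested on 24, 7 and 14 reads. At 48 hr RPN7 had 232, 205 and 158 PPM in oxidized and 199, 168 and 135 PPM in reduced cells. Its fold change at 72 hr was -0.98 ± 0.30 (adjusted p = 0.0246, limma). Without oxidized replicate 2 it was -0.61 (adjusted p = 0.277), and the call was also lost without oxidized replicate 3 (-0.92, 0.0912), without reduced replicate 2 (-0.86, 0.131) or 3 (-0.94, 0.075) of that age, and with a pseudocount of 1 PPM (0.0506).

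RPN9, another structural lid gene, lies on chromosome IV (YDR427W, 1322205 to 1323386). It had 279, 252 and 212 PPM in oxidized and 328, 368 and 389 PPM in reduced cells at 72 hr. RPN9 at 48 hr had 265, 242 and 332 PPM in oxidized and 332, 327 and 421 PPM in reduced cells. The groups did not overlap at 72 hr and overlapped at 48 hr, and the fold change over both ages was -0.44 ± 0.15 (adjusted p = 0.0447, limma). This difference was close to the threshold, since leaving out any of 9 of the 12 libraries took the adjusted p to between 0.053 and 0.136 and rescaling by the median of ratios took it to 0.108. The libraries without which it stayed past the threshold were oxidized replicate 3 and reduced replicate 2 at 48 hr and oxidized replicate 1 at 72 hr.

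**Figure D4:**
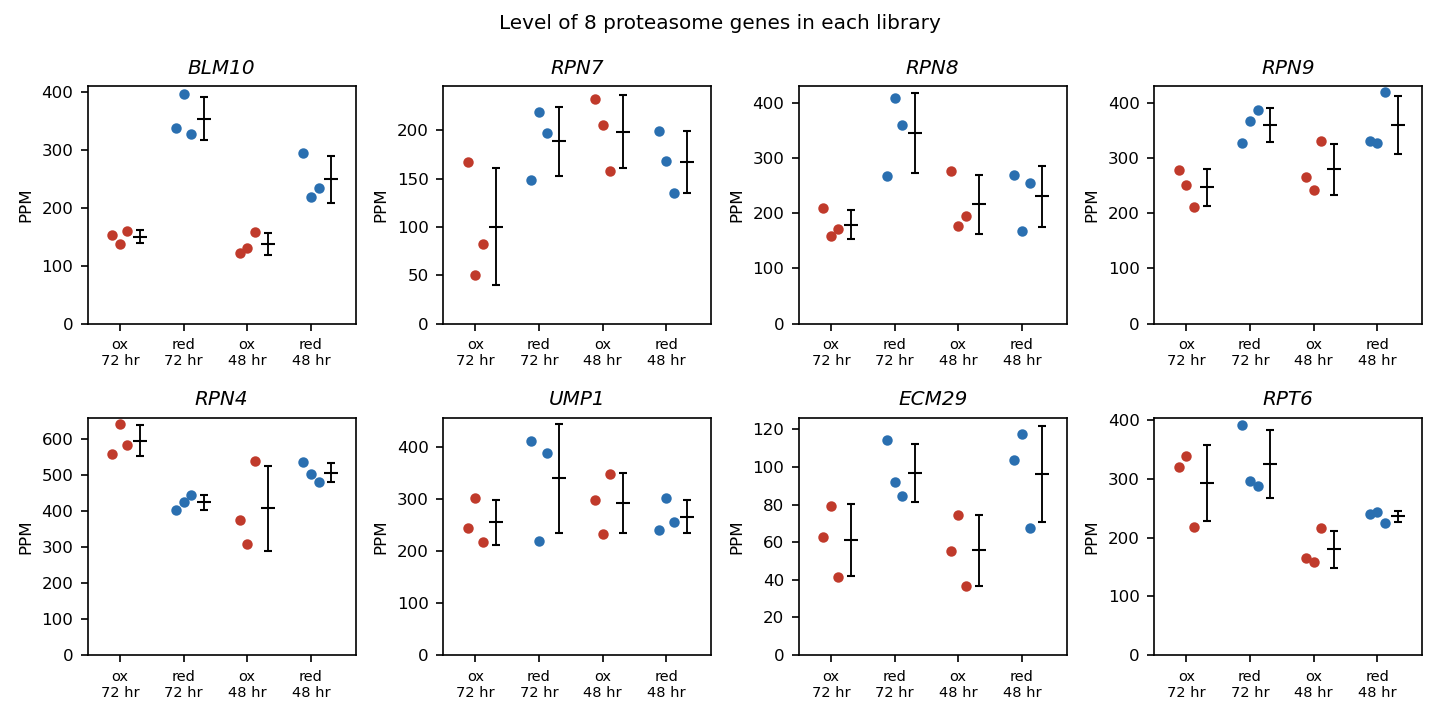
PPM of BLM10, RPN7, RPN8, RPN9, RPN4, UMP1, ECM29 and RPT6 in each library (y axis, from 0) for oxidized cells (ox, red points) and reduced cells (red, blue points) at 72 hr and 48 hr. Points are libraries, and the bars beside them give the mean and SD of 3 libraries. For BLM10 the 6 oxidized libraries lie between 122 and 159 PPM and the 6 reduced ones between 218 and 396 PPM.

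None of the 14 core particle genes passed the test of a redox difference, with 3 of them below an unadjusted p of 0.05 at 72 hr and 1 at 48 hr, against 20.4% and 14.6% of all genes tested at those ages. At 72 hr, 13 of the 14 had fold changes below 0, and all 7 beta ring genes did, with a median of -0.44. At 48 hr 5 of the 7 beta ring genes were above 0, with a median of 0.10.

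The proteolytic subunits are encoded by PRE3, PUP1 and PRE2, whose products cleave after acidic, basic and hydrophobic residues. PRE3, on chromosome X (YJL001W, 435163 to 435926), had 209, 173 and 129.7 PPM in oxidized and 253, 311 and 197 PPM in reduced cells at 72 hr. At 48 hr it had 199, 158 and 184 PPM in oxidized and 199, 126 and 150.4 PPM in reduced cells. The groups overlapped at both ages, and the fold change was -0.55 ± 0.26 (adjusted p = 0.215, limma) at 72 hr and 0.20 ± 0.26 (adjusted p = 0.819, limma) at 48 hr.

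PUP1 had 126, 202 and 147 PPM in oxidized and 214, 191 and 163 PPM in reduced cells at 72 hr. At 48 hr it had 155, 93.2 and 126 PPM in oxidized and 158, 117 and 113 PPM in reduced cells, and the groups overlapped at both ages. PRE2 had 230.2, 188 and 177 PPM in oxidized and 268, 283 and 259 PPM in reduced cells at 72 hr, with no overlap. At 48 hr PRE2 had 144, 214 and 216 PPM in oxidized and 120.3, 277 and 158 PPM in reduced cells, with overlap. The fold change of PRE2 at 72 hr was -0.44 ± 0.26 (adjusted p = 0.354, limma), and that of PUP1 was -0.26 ± 0.28 (adjusted p = 0.67, limma). The other beta ring genes without overlap at 72 hr were PRE7 (-0.56) and PRE4 (-0.53), and among the alpha ring genes PRE9 (-0.40) and PRE6 (-0.40).

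None of the 10 base genes passed the test either, with 2 below an unadjusted p of 0.05 at 72 hr and 1 at 48 hr, which is near or below the same shares of all genes. At 72 hr 9 of 10 had fold changes below 0, the lowest being RPN1, a scaffold of the base, with -0.63 ± 0.26 (adjusted p = 0.129, limma). RPT1, an ATPase gene without overlap at 72 hr, had -0.44 over both ages (adjusted p = 0.112, limma) and passed the threshold without oxidized replicate 1 at 48 hr (-0.58, 0.0241). The ATPase gene RPT4 had the largest positive fold change at 48 hr. It had 409, 410.2 and 258 PPM in oxidized cells and 236, 269 and 180.5 PPM in reduced cells, which overlapped, and its fold change of 0.62 ± 0.22 gave an adjusted p of 0.126 (limma). Without oxidized replicate 3 of that age it was 0.83 (adjusted p = 0.0386). At 72 hr RPT4 had 363, 325 and 259 PPM in oxidized and 328, 353 and 327 PPM in reduced cells, a fold change of -0.10 ± 0.22. After RPT4, the lid genes RPN12 (0.51 ± 0.24) and RPN6 (0.49 ± 0.22) had the largest positive fold changes at 48 hr, and after BLM10 and ECM29 the alpha ring gene PRE5 (-0.52 ± 0.25) had the lowest. At 72 hr the lid gene RPN5 (0.28 ± 0.24) followed RPN4 as the highest, and then SCL1 and the ubiquitin receptor gene RPN10 (both 0.05).

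RPN4, on chromosome IV (YDL020C, 415113 to 416708), had a fold change above 0 at 72 hr without passing the test, while 30 of the 36 genes were below 0. The activity of Rpn4 was not measured. At 72 hr it had 558, 642 and 584 PPM in oxidized cells and 402, 424 and 445 PPM in reduced cells. At 48 hr it had 376, 308 and 538 PPM in oxidized cells and 535, 503 and 481 PPM in reduced cells. The oxidized libraries were the higher ones at 72 hr, without overlap, and at 48 hr the groups overlapped with 2 of 3 oxidized libraries below all reduced ones. The fold change was 0.48 ± 0.19 (adjusted p = 0.12, limma) at 72 hr and -0.34 ± 0.19 (adjusted p = 0.429, limma) at 48 hr. The test of the change between the ages gave 0.82 ± 0.27 (adjusted p = 0.209, limma), with a 95% confidence interval of 0.27 to 1.37 before adjustment. No member passed this test of the redox difference at 72 hr minus that at 48 hr, while 0.775% of all genes did, and 6 of the 36 (16.7%) were below an unadjusted p of 0.05, against 430 of the 4776 genes tested. All 7 beta ring genes were below 0 in it, with a median of -0.54, against -0.19 for the 36 genes and -0.00 for all genes tested.

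No member changed between 72 and 48 hr past the threshold. In oxidized cells 0.440% of all genes changed, and 18 of the 36 genes were above and 18 below 0, with a median of -0.00. In reduced cells 0.565% of all genes were higher and 1.76% lower at 72 hr, and 30 of the 36 genes were above 0, with a median of 0.21, against 0.10 for all genes tested. After rescaling by the median of ratios, 24 of 36 were above 0 in reduced cells and 14 in oxidized cells, and the genes called in reduced cells numbered 15 higher and 111 lower, against 27 and 84 before it. An unadjusted p below 0.05 was found for 6 of 36 genes (16.7%) in each subpopulation, against 9.90% of all genes in oxidized and 12.0% in reduced cells. In oxidized cells RPN7 had the lowest fold change, -1.05 ± 0.30 (adjusted p = 0.107, limma), and it passed the threshold without replicate 1 at 72 hr (-1.46, 0.0183). The comparisons of age and redox state share their libraries, so that the reduced libraries at 72 hr, which held the highest sums, enter both.

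Averaged over the redox states, 2.30% of all genes and no member changed with age, and 4 members (11.1%) were below an unadjusted p of 0.05, against 13.3% of all genes. The nearest was the ATPase gene RPT6, with 321, 339 and 218 PPM in oxidized cells at 72 hr against 166, 158 and 216 PPM at 48 hr. In reduced cells it had 392, 297 and 287 PPM at 72 hr against 241, 243 and 226 PPM at 48 hr. The ages did not overlap within either subpopulation, and the fold change was 0.55 ± 0.16 (adjusted p = 0.0645, limma). It passed the threshold with a pseudocount of 50 PPM (0.0477) or a minimum mean of 50 PPM (0.0421), and without oxidized replicate 3 at 48 hr (0.0438) or 72 hr (0.0324).

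The 28 genes with the full Rpn4 element had a median redox difference of -0.32 at 72 hr and 0.00 at 48 hr, and the 8 genes without it had -0.22 and -0.07. The genes past the threshold at 72 hr stood on both sides of this division, since RPN7 holds the full element, RPN8 the core alone and BLM10 neither form. The difference between the 2 sets was not tested.

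Of the other genes of the pathway, TMA17 and SPG5 were lower in oxidized cells at both ages, as BLM10 was. SPG5 was the only one of 5 listed enzymes and regulators bound to the proteasome that passed a test. Among all genes tested, 4.75% were lower at 72 hr and 2.43% at 48 hr. Tma17 is a stress-induced assembly chaperone of the base in yeast, and Spg5 binds the proteasome in stationary phase. TMA17 had 412, 361 and 472 PPM in oxidized and 641, 770.5 and 755 PPM in reduced cells at 72 hr, and 343, 308 and 390.0 PPM in oxidized and 622, 512 and 572 PPM in reduced cells at 48 hr. SPG5 had 356, 454 and 395 PPM in oxidized and 939, 707 and 592 PPM in reduced cells at 72 hr, and 343, 354 and 416 PPM in oxidized and 560.0, 562 and 744 PPM in reduced cells at 48 hr. For both genes the 6 oxidized libraries lay below the 6 reduced ones. The fold changes of TMA17 were -0.79 ± 0.19 (adjusted p = 0.00208, limma) at 72 hr and -0.70 ± 0.19 (adjusted p = 0.0197, limma) at 48 hr. Those of SPG5 were -0.86 ± 0.19 (adjusted p = 0.00112, limma) and -0.72 ± 0.19 (adjusted p = 0.0194, limma). At 48 hr TMA17 lost its call without oxidized replicate 2 (0.0906) or reduced replicate 1 (0.125) or 3 (0.0686), and SPG5 without oxidized replicate 1 (0.072) or 2 (0.0605) or reduced replicate 3 (0.162). Neither form of the Rpn4 element was found in the window of either gene.

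Of the 9 assembly chaperone and SEM1 genes that could be tested, out of 10 listed, TMA17 was the one lower in oxidized cells at each age, and none was higher. Over both ages SEM1, the gene of the smallest lid subunit, was also lower, and RPN14, the gene of another base assembly chaperone, was higher. In that comparison 6.97% of all genes tested were lower and 4.90% higher. SEM1 had 251, 296 and 183 PPM in oxidized and 353, 389 and 344 PPM in reduced cells at 72 hr, and 221, 205 and 179 PPM in oxidized and 257, 436 and 211 PPM in reduced cells at 48 hr. The groups did not overlap at 72 hr, and the fold change over both ages was -0.54 ± 0.17 (adjusted p = 0.0261, limma). RPN14 had 112, 72.1 and 35.4 PPM in oxidized and 19.9, 28.3 and 45.1 PPM in reduced cells at 72 hr, and 122, 131 and 100.1 PPM in oxidized and 45.6, 50.3 and 90.2 PPM in reduced cells at 48 hr. The groups did not overlap at 48 hr, and the fold change over both ages was 0.91 ± 0.29 (adjusted p = 0.0273, limma). SEM1 lost its call without any of 4 libraries (adjusted p up to 0.158, limma) and after rescaling by the median of ratios (0.0636). RPN14 lost its call without any of 6 libraries (up to 0.121). It was covered by 121 reads in all, with 4, 4 and 8 in the reduced libraries at 72 hr.

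Of the 12 genes of ubiquitin, its activation and its delivery, RPL40B was lower in oxidized cells at 72 hr. None of the 12 passed the test at 48 hr, and UBI4 was lower over both ages. The share of all genes tested that was lower was 4.75% at 72 hr and 6.97% over both ages. UBI4 encodes a chain of fused ubiquitin units and is induced by stress. It had 851, 873 and 931 PPM in oxidized and 1281, 1378 and 1138 PPM in reduced cells at 72 hr, and 962, 858 and 748 PPM in oxidized and 1448, 797 and 1331 PPM in reduced cells at 48 hr. All oxidized libraries lay below all reduced ones at 72 hr, and at 48 hr 1 reduced library lay among the oxidized ones. The fold change over both ages was -0.47 ± 0.12 (adjusted p = 0.00502, limma), and at 72 hr it was -0.51 ± 0.17 (adjusted p = 0.0504, limma).

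RPL40B, which encodes a ubiquitin fused to a ribosomal protein, had 13.95, 43.3 and 23.6 PPM in oxidized and 109, 134 and 141 PPM in reduced cells at 72 hr. At 48 hr it had 44.2, 18.6 and 31.6 PPM in oxidized and 41.5, 16.8 and 22.6 PPM in reduced cells. The reduced libraries at 72 hr were thus the high ones, with a fold change of -1.97 ± 0.46 (adjusted p = 0.00152, limma) between the redox states at 72 hr and of 1.95 ± 0.46 (adjusted p = 0.00635, limma) between the ages in reduced cells. The difference between the ages rose to an adjusted p of 0.0583 without reduced replicate 2 at 48 hr. RPL40B rests on 105 reads and has a nearly identical copy, RPL40A, so that its values are uncertain where reads of the pair could be divided.

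Of the 7 genes that control RPN4 or destroy its product, RAD6 was higher in oxidized cells at 72 hr and MUB1 was lower over both ages. Among all genes tested, 4.86% were higher at 72 hr and 6.97% were lower over both ages. None of the related lists was tested as a set. Rad6 is the ubiquitin-conjugating enzyme that works with Ubr2 and Mub1 on Rpn4. RAD6 had 279, 224 and 253 PPM in oxidized and 159, 141 and 113 PPM in reduced cells at 72 hr, without overlap. At 48 hr RAD6 had 210.2, 317 and 206 PPM in oxidized and 236, 209.8 and 233 PPM in reduced cells, with overlap. The fold change at 72 hr was 0.83 ± 0.24 (adjusted p = 0.0172, limma), and the call was lost without oxidized replicate 1 (0.0852) or 3 (0.0608) or reduced replicate 3 (0.0904) of that age. MUB1 was covered by 64 reads in all. It had 27.9, 7.21 and 0 PPM in oxidized and 54.6, 21.2 and 50.7 PPM in reduced cells at 72 hr, and 11.1, 18.6 and 36.9 PPM in oxidized and 45.6, 33.6 and 82.7 PPM in reduced cells at 48 hr. The groups overlapped at both ages, and the fold change over both was -1.20 ± 0.38 (adjusted p = 0.0254, limma), which was lost without any of 5 libraries (up to 0.102) and with a pseudocount of 1 PPM (0.0735).

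**Figure D5:**
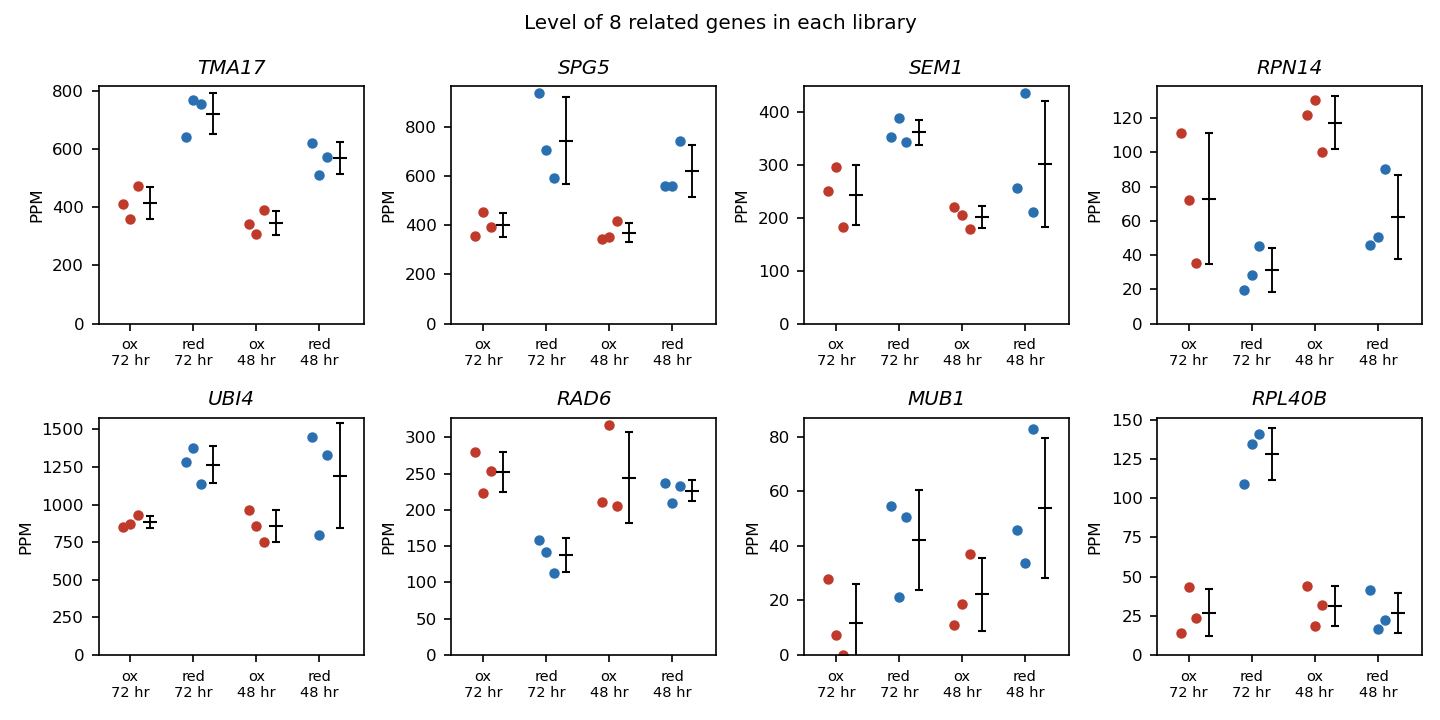
PPM of the related genes that passed a test, TMA17, SPG5, SEM1, RPN14, UBI4, RPL40B, RAD6 and MUB1, in each library (y axis, from 0) for oxidized cells (ox, red points) and reduced cells (red, blue points) at 72 hr and 48 hr. Points are libraries and bars beside them the mean and SD of 3 libraries, drawn from 0 where the SD of MUB1 exceeds the mean. The 6 oxidized libraries of SPG5 lie between 343 and 454 PPM and the 6 reduced ones between 560.0 and 939 PPM.

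The summed levels of marker genes of other cell states were compared in the same groups, without a test of the sums. The 4 genes of meiosis and diploid cells summed to 69.8 to 94.3 PPM in oxidized and 203 to 283 PPM in reduced cells at 72 hr, and to 44.2 to 94.9 PPM in oxidized and 112 to 128 PPM in reduced cells at 48 hr. The reduced libraries were the higher ones at both ages. SPO13 rested on 1 read, in replicate 1 of the reduced cells at 72 hr, and SPO11 on 13 reads over all libraries. Of the 4 genes, IME1, the inducer of meiosis, was lower in oxidized cells at 72 hr with -1.22 ± 0.34 (adjusted p = 0.0126, limma). The 8 genes expressed in daughter cells summed to 1043 to 1165 PPM in oxidized and 714 to 1026 PPM in reduced cells at 72 hr, and to 1063 to 1281 PPM in oxidized and 838 to 1158 PPM in reduced cells at 48 hr, none of them at 0 throughout a group. These sums overlapped at 48 hr, and none of the 8 genes passed a test. The 6 a-specific genes summed to 1423 to 1515 PPM in oxidized and 1122 to 1335 PPM in reduced cells at 72 hr, without overlap, and to 1038 to 1417 PPM in oxidized and 1286 to 1519 PPM in reduced cells at 48 hr, with overlap. The 5 of them that could be tested were all above 0 at 72 hr and all below 0 at 48 hr, and none passed a test. The part of these markers in the differences of the proteasome genes was not tested.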

How the data were processed

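RNA of sorted cells was reverse transcribed with oligo-dT primers carrying a barcode and a molecular identifier. The authors aligned reads to sacCer3 with Bowtie2 at default settings, removed duplicates by identifier, counted reads around the transcript end and deposited PPM; bcl2fastq 2.17 is also named in the submitters' processing notes. Which annotation was used, and whether strand was, is not given in the sources used here. All deposited PPM values were whole reads to within 0.1, but the unit was treated as normalized, so that no count test was run. In 10 pairs of genes overlapping on opposite strands the read ratio had a median of 0.0491, against 0.955 in 6 pairs on the same strand, and no member overlapped a same-strand window.

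Of 6645 genes, 4776 averaging 20 PPM or more were fitted as log2(PPM + 10) with limma 3.58.1 in R 4.3.3, with 4 group means and a trended prior; 2 genes broken over lines were left out. The main fit was checked on simulated data in which genes differed by redox state at both ages. No age change was simulated, and the alternative fits were not checked in this way. Named were RPN4, UMP1, BLM10, ECM29, the 3 proteolytic subunits, members past the threshold, the extremes at each age, and called genes of related lists. The members and lists were chosen with earlier results of these data known. Alternatives were pseudocounts of 1 and 50 PPM, minimum means of 50 PPM and none, rescaling by the median of ratios, each age alone, a replicate block and leaving out each library. Intervals of sums cover counting error only.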

Additional observations from a re-analysis of the deposited data

How the results depend on the processing

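Of 132 results over the proteasome genes under the alternatives that kept all libraries of a comparison, 120 stayed within the limits set for them. Rescaling by the median of ratios took the median fold change to 0.034 at 48 hr, -0.20 at 72 hr and -0.11 over both ages for redox state, and to -0.075 in oxidized cells, 0.12 in reduced cells and 0.036 over both for age. Under it no gene was lower at 48 hr and 1 was lower over both ages. With the libraries of each age fitted alone, 0 genes were lower at 48 hr. A pseudocount of 50 PPM or a minimum mean of 50 PPM took the genes higher with age over both redox states to 1, RPT6.

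Leaving out single libraries gave 0 to 1 gene lower and 0 to 1 higher at 48 hr, 1 to 3 lower at 72 hr, 1 to 3 lower over both ages, 0 to 1 lower with age in oxidized cells and 0 to 1 higher with age over both redox states. The medians ranged over -0.08 to 0.03 at 48 hr, -0.34 to -0.23 at 72 hr, -0.22 to -0.14 over both ages, -0.05 to 0.05 with age in oxidized cells, 0.17 to 0.23 in reduced cells, 0.09 to 0.14 over both, and -0.29 to -0.15 for the change of the redox difference. No fold change of a named gene that was past the threshold changed sign under any alternative, whereas fold changes near 0 that were not past it did so when single libraries were left out.

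The main fit held no pairing of libraries. With a replicate block, 1 gene was lower over both ages, RPN9 being lost (adjusted p = 0.0517, limma). This block joins libraries of the same number across both ages, so that it is not a pairing within an age. After group means were taken away, the 18 pairs of libraries with the same number correlated between -0.06 and 0.04. The 36 pairs with other numbers correlated between -0.05 and 0.05. With so few reads per gene, such correlations cannot show whether samples of one number came from one culture. A standard error near 0.24 limits what these depths can show.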

Other observations

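Outside the proteasome, 44 other genes held the full Rpn4 element in the same window, 7 of them by sharing the match of a member. Of the 36 with a match of their own in the table, 30 could be tested. At 72 hr 1 of these was higher and 2 were lower in oxidized cells, with a median of -0.39, against 4.86% higher, 4.75% lower and a median of -0.11 over all genes tested. At 48 hr 1 was lower, with a median of -0.07, against 2.43% lower and a median of -0.07 over all genes.

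The following genes were chosen after their values were seen. ACS1, which encodes an acetyl-CoA synthetase, had 300.0, 397 and 424 PPM in oxidized and 1271, 1074 and 1003 PPM in reduced cells at 72 hr, with a fold change of -1.56 ± 0.19 (adjusted p = 6.26e-09, limma). SGT2, which encodes a cochaperone of tail-anchored protein delivery, had 969.7, 945 and 943 PPM in oxidized and 546, 368 and 490.2 PPM in reduced cells at 72 hr, with a fold change of 1.03 ± 0.18 (adjusted p = 1.56e-05, limma). AHC2 was lower in oxidized cells at 72 hr, with a fold change of -1.26 (adjusted p = 0.000102, limma). These were the genes with an element of their own that passed the threshold at 72 hr. Their number in either direction was near the share of all genes tested.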
